A study of Mus musculus with 6 samples.

Results

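The cell-cycle genes described here are 46 transcripts of G2 and M phase in cultured mouse melanoma cells: mitotic kinases, cyclins A and B, and genes of the spindle, the kinetochore and cytokinesis. They were taken by name from a table of 22535 gene rows, and all 46 were in the table, were above 0 in every library and passed the filter on low values (1 CPM or more on average across the 6 libraries). CPM is the number of reads of a gene in a library, scaled to a fixed total of reads counted in genes. By RNA sequencing, the sgNDUFS4 genotype of B16-BL6 cells (n = 3 libraries) was set against the sgControl genotype of the same line (n = 3 libraries), and both carry a guide. B16-BL6 was derived from the mouse melanoma B16 by selection for invasion. The product of Ndufs4 is part of mitochondrial complex I, the first enzyme of the respiratory chain. Both groups were grown in the same medium with serum and pyruvate and lysed before they were fully confluent. The study asked which transcripts changed in cells that had become immunogenic. The labels give no statement that the libraries of a group are separate cultures, nor whether each line is a clone or a pool, and how the guides were delivered is not given in the sources used here, so the spread behind each p-value is that between libraries and may be technical.

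Entry into mitosis is driven by the kinase Cdk1 bound to cyclins A and B, after Cdc25 phosphatases remove inhibitory phosphates from Cdk1. Polo-like and Aurora kinases then build the spindle, and the spindle assembly checkpoint holds the anaphase-promoting complex inactive until every kinetochore is attached. Once released, that complex marks cyclin B and securin for destruction, separase splits the sister chromatids, and the central spindle directs cytokinesis. In cycling cells these transcripts peak in G2 and M. Their promoters often carry CCAAT boxes and a cell cycle genes homology region (CHR), searched here as the letters TTTGAA or the variant TTCGAA. The CHR is bound by MuvB protein complexes that repress the genes early in the cycle and activate them later.

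The promoters of the genes on which the results turn are shown here because many members hold these motifs. Of the 46 genes, 39 had a promoter window in the RefSeq table for GRCm38.p6, which runs from 250 bases before to 50 bases after the start. In the lines below, the last 100 bases before the start are given 5′ to 3′ on the strand of the gene, and capitals mark CHR and CCAAT letters on either strand. Cdk1, Cdc20, Ube2c and Espl1 were lower in sgNDUFS4, Top2a did not pass the test, and Ccnb1 and Plk4 were higher as deposited, Ccnb1 turning lower relative to its neighbours.
Cdk1: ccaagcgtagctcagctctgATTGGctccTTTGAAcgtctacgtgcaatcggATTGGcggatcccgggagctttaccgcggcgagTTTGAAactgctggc
Cdc20: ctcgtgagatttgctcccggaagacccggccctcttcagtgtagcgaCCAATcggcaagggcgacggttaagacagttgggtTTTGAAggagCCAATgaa
Ube2c: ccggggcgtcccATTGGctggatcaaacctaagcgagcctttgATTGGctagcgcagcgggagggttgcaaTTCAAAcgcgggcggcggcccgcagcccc
Espl1: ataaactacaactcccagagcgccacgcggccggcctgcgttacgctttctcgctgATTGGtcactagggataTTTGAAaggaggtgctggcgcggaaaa
Top2a: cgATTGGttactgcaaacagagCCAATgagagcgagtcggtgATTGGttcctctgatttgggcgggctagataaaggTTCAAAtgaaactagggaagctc
Ccnb1: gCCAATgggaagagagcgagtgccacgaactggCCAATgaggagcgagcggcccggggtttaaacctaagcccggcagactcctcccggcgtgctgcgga
Plk4: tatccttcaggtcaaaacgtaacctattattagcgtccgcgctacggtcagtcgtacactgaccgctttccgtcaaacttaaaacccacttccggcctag
These stretches lie at chr10:69352913-69353012 (minus strand) for Cdk1, chr4:118437344-118437443 (minus strand) for Cdc20 and chr2:164769829-164769928 (plus strand) for Ube2c. They lie at chr15:102296193-102296292 (plus strand) for Espl1, chr11:99024190-99024289 (minus strand) for Top2a, chr13:100786487-100786586 (minus strand) for Ccnb1 and chr3:40799851-40799950 (plus strand) for Plk4.

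In Aurka, Plk1 and Racgap1, members that fell strongly, the CHR letters lie after the start, and 30 bases around them are shown in the same way.
Aurka: aaaaggagaaccTTTGAAttgtaacggctg
Plk1: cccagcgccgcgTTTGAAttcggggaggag
Racgap1: ctggtgcgtgatTTTGAAccggatctggcg
These sites lie at chr2:172370521-172370550 (minus strand) for Aurka, chr7:122159453-122159482 (plus strand) for Plk1 and chr15:99651634-99651663 (minus strand) for Racgap1.

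The motifs searched were TTTGAA, which reads TTCAAA on the other strand, and the letters TTCGAA, which is its own reverse complement, for the CHR, and CCAAT, which reads ATTGG on the other strand. The CHR and CCAAT letters do not contain each other. The CHR letters occurred in 29 of the 39 members, or 74.4%, and in 19.4% of the windows of all 27025 genes in the table. In 26 of these 29 members a match began between position -30 and position 50, counted from the start as 1. Matches between these positions were not counted over all windows, so no background stands beside the 26. CCAAT letters occurred in 28 of the 39 members, or 71.8%, and in 37.9% of all windows, and both motifs occurred in 64.1% of members and 7.70% of all windows. A match is a description of the letters and not evidence of binding. Other forms of the CHR were not searched, so a window without a match is not shown to lack one. Such a window also says nothing about other stretches of the promoter.

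**Figure D1:**
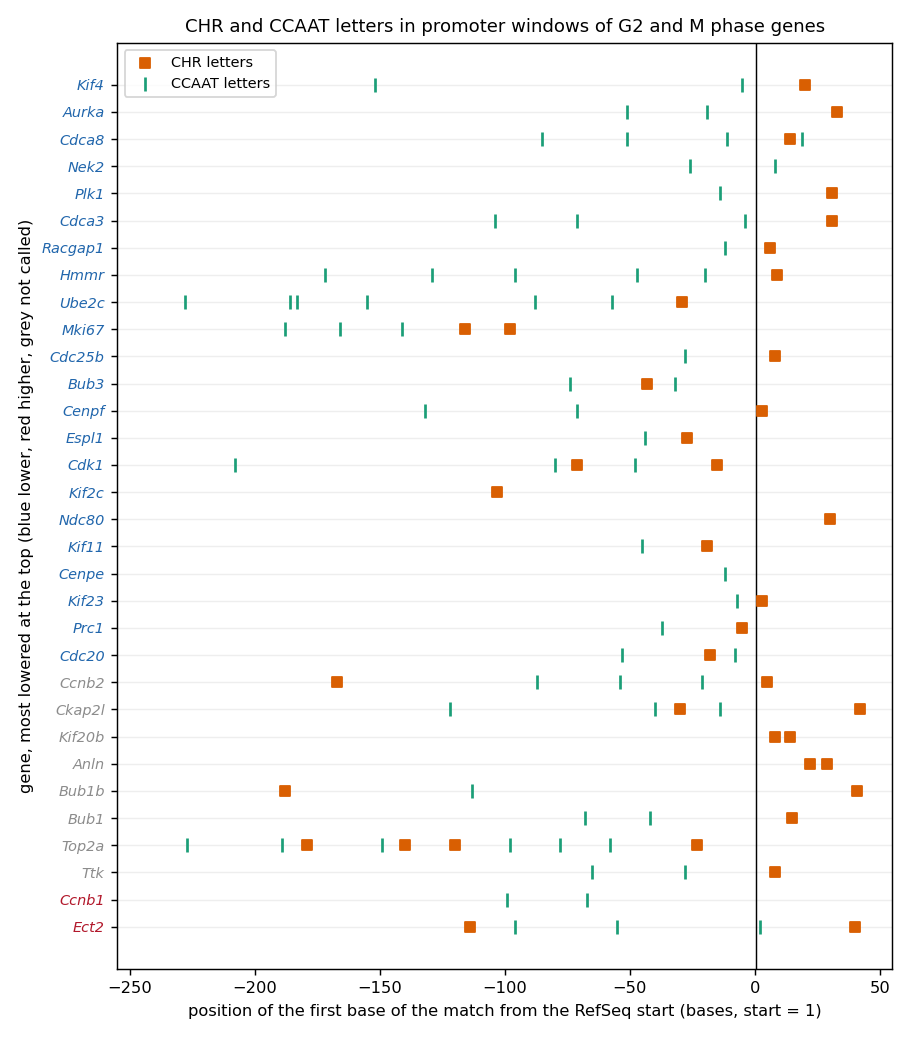
Position of CHR letters (orange squares) and CCAAT letters (green bars) in the promoter windows of the 32 members that hold a match, with the position from the RefSeq start in bases on the x axis and genes ordered by log2 fold change. In 26 of 29 genes a CHR match lies between -30 and 50, a count not made over all windows. Blue names are genes lower in sgNDUFS4 and grey names genes that did not pass. The red names are Ccnb1 and Ect2, higher as deposited and lower relative to their neighbours.

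Depth in reads assigned to genes was between 23910781 and 25947374 in the sgNDUFS4 libraries, and in the sgControl libraries between 20090607 and 23652793. The targeted gene Ndufs4 was at 14.99, 15.98 and 16.84 CPM in sgNDUFS4, against 54.30, 55.05 and 52.39 CPM in sgControl. Every sgNDUFS4 library was far below every sgControl library, with a log2 fold change of -1.73 (adjusted p = 5.9e-16 in limma, SE 0.076), and transcript remained in all of them. Of 9 melanocyte markers, 8 were detected in every library, among them Mitf, Sox10 and Pmel, and Ednrb was at 0 throughout. The summed level of the 9 markers was between 14527 and 15553 CPM in sgNDUFS4 and between 15422 and 15947 CPM in sgControl. All 4 endothelial markers were at 0, 5 leukocyte markers summed to between 3.39 and 9.14 CPM in sgNDUFS4 and between 4.35 and 7.02 CPM in sgControl with Cd3e at 0, and 5 epithelial markers to between 0.424 and 1.255 CPM in sgNDUFS4 and between 1.21 and 6.27 CPM in sgControl. The 5 fibroblast markers summed to between 41.4 and 46.1 CPM in sgNDUFS4 and between 41.8 and 44.1 CPM in sgControl, with Dcn and Lum at 0. Single melanocyte markers moved in both directions. Tyr had the largest change, with a log2 fold change of -3.19 (adjusted p = 5.3e-17 in limma). Mlana, Dct, Tyrp1 and Sox10 also fell, by 0.42, 0.31, 0.15 and 0.12 on the log2 scale. Pmel and Mitf rose, by 0.34 and 0.16 (limma adjusted p = 1.1e-10 and 0.0047), and S100b did not pass. The part of these markers in the results was not tested.

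G2 and M phase transcripts were lower in sgNDUFS4 than in sgControl for most members. Of the 46 genes, 27 fell, 3 rose and 16 did not pass (limma on log2(CPM + 0.5), two-sided, Benjamini-Hochberg adjusted p under 0.05 over all 11063 genes tested). Among all genes tested, 20.3% were lower and 31.8% were higher. Log2 fold changes from limma use that CPM + 0.5 scale. The median log2 fold change was -0.19 over the 46 genes and 0.06 over all genes tested. The members ranged from -1.0025 for Kif4 to 0.41 for Plk4. The 46 genes together held between 0.749% and 0.761% of the reads in the sgNDUFS4 libraries and between 0.859% and 0.866% in the sgControl libraries. The ranges of that sum did not overlap. In bulk RNA a smaller share of cells in G2 and M and less of these transcripts per cell cannot be told apart.

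The CPM of all 3 sgNDUFS4 libraries lay below those of all 3 sgControl libraries in 30 of the 46 genes, and above them in 3. Over all genes tested, 22.2% lay wholly below and 35.0% wholly above. The 30 comprise the 27 genes that fell and Ccnb2, Mad2l1 and Anln, which did not pass. As deposited, 61.1% of all called genes were higher in sgNDUFS4, whereas TMM scaling, which sets the libraries level on the bulk of genes, gave 48.9%. With TMM scaling, 32 of the 46 genes were lower (25.9% of all genes) and 1 was higher, Plk4 (24.8% of all genes).

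Of the 29 members with CHR letters in the promoter window, 20 fell, 1 rose and 8 did not pass, and their median log2 fold change was -0.26. Of the 10 members whose window held none, 3 fell, 2 rose and 5 did not pass, with a median of -0.05. These counts are a description beside the background of 20.3% lower and 31.8% higher. They and the medians are as deposited, and the risers lie in raised chromosomal surroundings. Relative to their neighbours, Ccnb1 and Plk4, without the letters, were at -0.32 and 0.08, and Ect2, with them, at -0.25. Mad2l1, Birc5 and Nusap1, also without them, were then lower (limma adjusted p = 0.0016, 2.5e-04 and 0.019), while Nuf2 and Pttg1 did not pass. Calls changed among members with the letters as well, as in Top2a and Kif4. A link between letters and change was not tested.

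**Figure D2:**
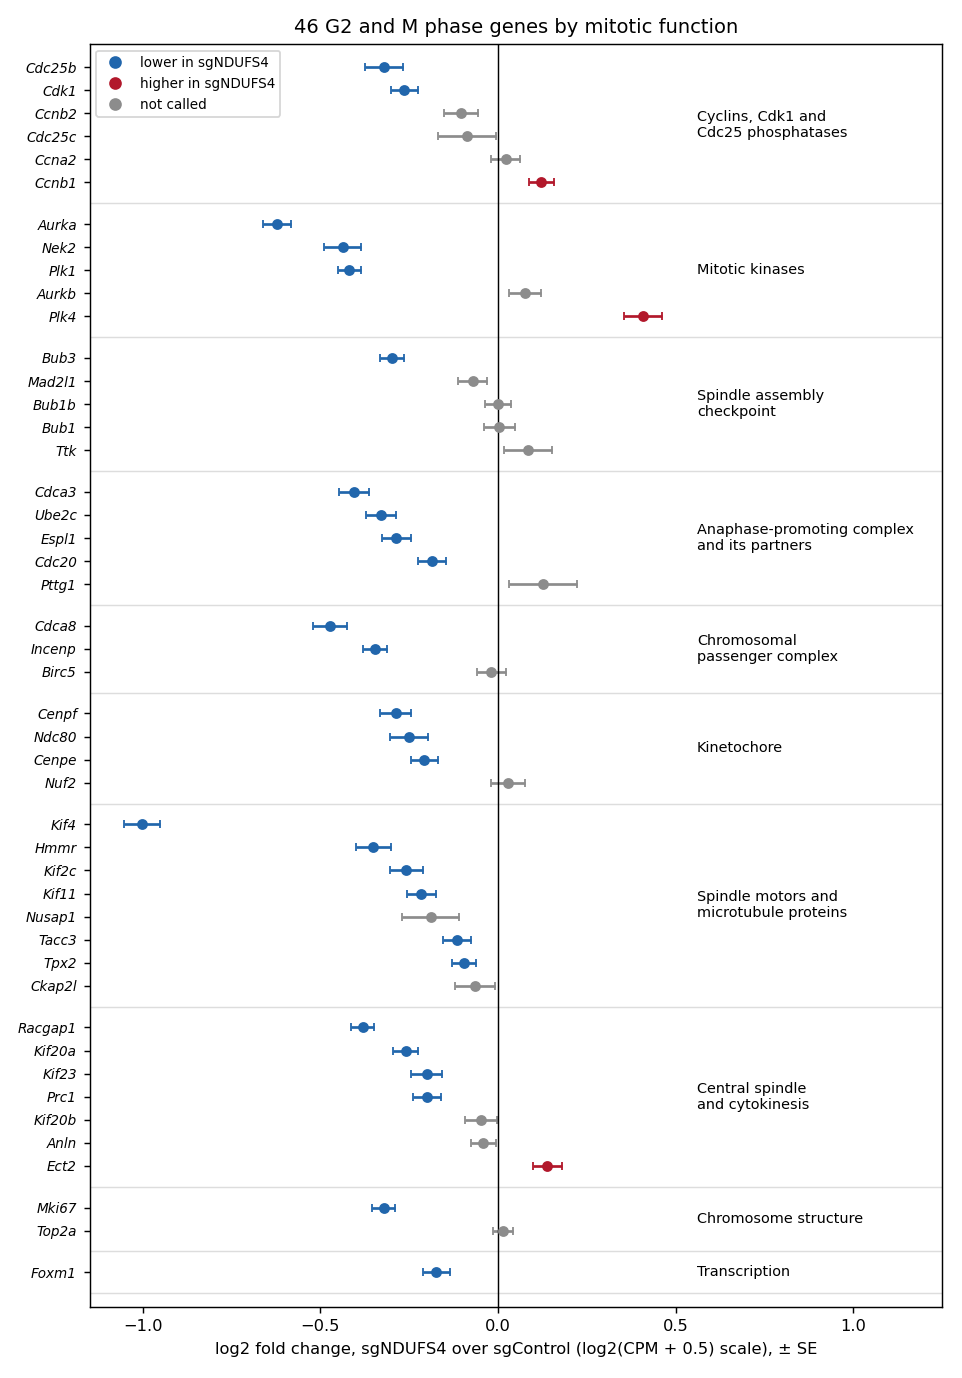
Log2 fold change of each of the 46 genes, sgNDUFS4 over sgControl, with its SE, grouped by mitotic function. Blue points were lower (27 genes), red points higher as deposited (Plk4, and Ect2 and Ccnb1, which turned lower relative to their neighbours) and grey points did not pass (16 genes), and Kif4 and Aurka lie farthest to the left.

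The kinases that build the spindle pole and carry cells through mitosis changed in both directions as deposited. Of 5 mitotic kinases, Aurka, Plk1 and Nek2 fell, Plk4 rose and Aurkb did not pass, beside 20.3% lower and 31.8% higher over all genes. Aurka, which matures centrosomes and assembles the spindle (chr2:172356190-172370535, GRCm38 as for all gene positions below), was at 151.9, 150.4 and 148.0 CPM in sgNDUFS4, against 225.0, 244.7 and 224.6 CPM in sgControl. The groups were well apart, and the mean fell by 35.1%, with a log2 fold change of -0.62 (adjusted p = 1.2e-12 in limma, SE 0.04). Plk1, the polo-like kinase that acts from mitotic entry to cytokinesis (chr7:122159439-122169873), was at 249.9, 247.0 and 246.6 CPM in sgNDUFS4, against 331.9, 335.5 and 326.9 CPM in sgControl. The libraries of each group agreed closely with each other, and the mean fell by 25.2%, with a log2 fold change of -0.42 (adjusted p = 6.3e-11 in limma, SE 0.033). Nek2, a kinase that separates the centrosomes, averaged 65.1 ± 3.05 CPM in sgNDUFS4 and 88.3 ± 1.99 CPM in sgControl (SD, n = 3 each) and fell (log2 fold change -0.44, limma adjusted p = 1.1e-07). Aurkb, the kinase of the chromosomal passenger complex, was at 127.2, 121.6 and 130.6 CPM in sgNDUFS4, against 114.1, 123.2 and 122.6 CPM in sgControl. Its groups overlapped (log2 fold change 0.08, limma adjusted p = 0.17), and it was lower relative to its chromosomal neighbours (-0.14, adjusted p = 0.017).

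Plk4, the kinase that starts centriole duplication (chr3:40800019-40816883), was the member with the largest rise. It was at 99.5, 109.5 and 116.1 CPM in sgNDUFS4, against 84.7, 80.1 and 79.7 CPM in sgControl. All sgNDUFS4 libraries were higher, with a spread of their own that was wider than that of the sgControl libraries (log2 fold change 0.41, SE 0.053, limma adjusted p = 4.9e-07). Its 50 nearest tested neighbours on chromosome 3 were also higher in sgNDUFS4, with a median shift of 0.33 on the log2 scale, and relative to them Plk4 was at 0.08 (limma adjusted p = 0.27).

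Cdk1 and its activating phosphatase Cdc25b fell, while of the 3 cyclins Ccnb1 rose as deposited, turning lower relative to its neighbours, and the other two did not pass. Of the 6 genes of this group, 2 fell, 1 rose and 3 did not pass, beside 20.3% lower and 31.8% higher over all genes. Cdk1, the kinase that drives mitotic entry (chr10:69335146-69352938), was at 188.9, 183.5 and 185.0 CPM in sgNDUFS4, against 223.4, 216.0 and 230.4 CPM in sgControl. The groups did not overlap (log2 fold change -0.26, SE 0.037, limma adjusted p = 1.7e-06). Cdc25b, which activates Cdk1 at the G2 to M transition, was at 58.0, 60.0 and 58.9 CPM in sgNDUFS4, against 72.1, 78.0 and 71.3 CPM in sgControl (log2 fold change -0.32, limma adjusted p = 2.2e-05). Its relative Cdc25c averaged 25.1 ± 0.910 CPM in sgNDUFS4 and 26.7 ± 1.68 CPM in sgControl (SD, n = 3 each) and did not pass (limma adjusted p = 0.39).

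The A- and B-type cyclins are the regulatory subunits of Cdk1. Ccnb1, cyclin B1 (chr13:100778650-100786570), was at 245.8, 252.4 and 244.9 CPM in sgNDUFS4, against 232.4, 228.9 and 221.6 CPM in sgControl. Its sgNDUFS4 libraries were all higher by a small margin (log2 fold change 0.12, SE 0.035, limma adjusted p = 0.0057), and the call was lost with TMM scaling (0.06, adjusted p = 0.16) and turned to -0.32 relative to its chromosomal neighbours. Ccnb1 has 4 annotated near-identical copies of at least 95% identity over 200 or more bases, so reads may be shared with them and its value is uncertain. Ccna2, cyclin A2, was at 162.7, 174.7 and 169.0 CPM in sgNDUFS4, against 171.0, 160.3 and 167.6 CPM in sgControl. These ranges overlapped (log2 fold change 0.02, limma adjusted p = 0.69). Ccnb2, cyclin B2, averaged 110.6 ± 5.82 CPM in sgNDUFS4 and 118.8 ± 5.14 CPM in sgControl (SD, n = 3 each) and did not pass in this fit (log2 fold change -0.10, limma adjusted p = 0.074), while it was lower with TMM scaling (-0.16, adjusted p = 0.0060) and without sgControl replicate 1 (-0.13, adjusted p = 0.049).

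**Figure D3:**
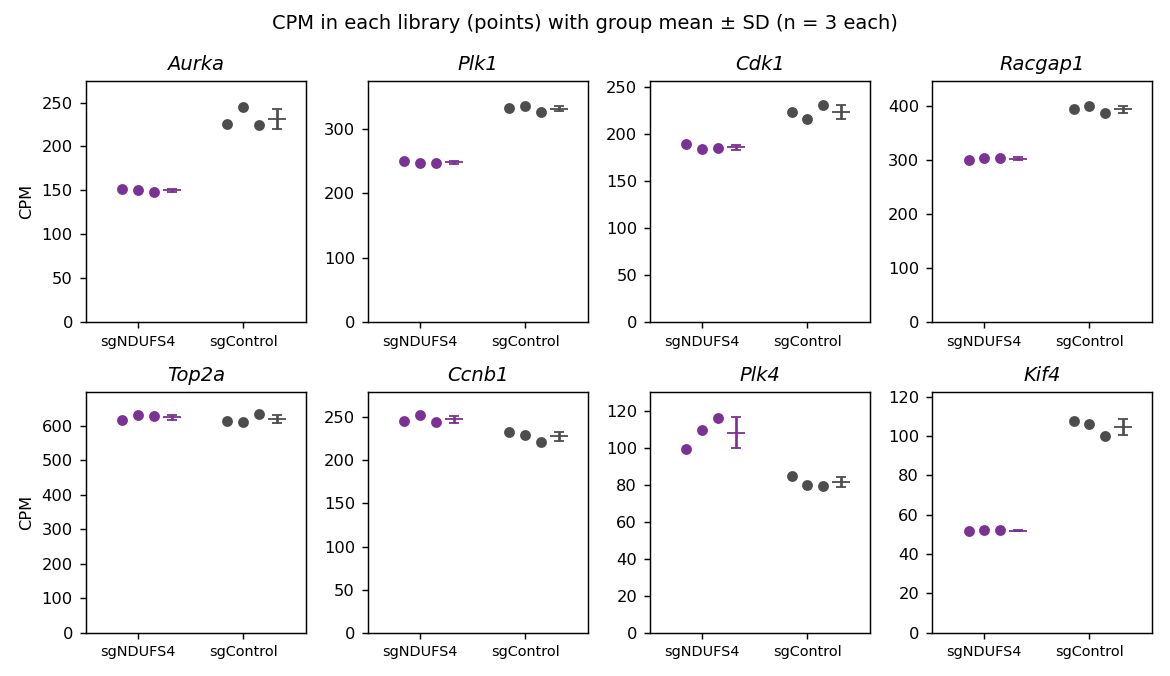
CPM of 8 members in each library (points), with the group mean and SD beside them, sgNDUFS4 on the left and sgControl on the right of each panel, y axes starting at 0. Aurka, Plk1, Cdk1, Racgap1 and Kif4 are lower in all 3 sgNDUFS4 libraries, Top2a overlaps, and Ccnb1, which was lower relative to its neighbours, and Plk4 are higher in all 3.

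In the spindle assembly checkpoint most genes did not pass. Of 5 genes, Bub3 fell and 4 did not pass, a share of lower calls near that over all genes (20.3% lower and 31.8% higher). Bub3, which brings the checkpoint kinases to the kinetochore (chr7:131560222-131571895), was at 342.9, 337.8 and 321.1 CPM in sgNDUFS4, against 417.0, 420.4 and 395.7 CPM in sgControl. The groups were apart (log2 fold change -0.30, SE 0.034, limma adjusted p = 6.4e-08). Bub1b, which encodes BubR1, a part of the inhibitor of the anaphase-promoting complex, was at 215.5, 226.2 and 216.3 CPM in sgNDUFS4, against 222.9, 216.5 and 218.2 CPM in sgControl, and Bub1, its kinase relative, averaged 132.0 ± 6.51 CPM in sgNDUFS4 and 131.6 ± 3.45 CPM in sgControl (SD, n = 3 each). Both ranges overlapped between the groups. Mad2l1, which encodes the Mad2 protein that captures Cdc20, was at 139.1, 143.7 and 142.5 CPM in sgNDUFS4, against 144.1, 148.9 and 154.2 CPM in sgControl (log2 fold change -0.07, limma adjusted p = 0.15), and it was lower with TMM scaling (-0.13, adjusted p = 0.010) and relative to its chromosomal neighbours (-0.18, adjusted p = 0.0016). Ttk, the kinase Mps1 that starts checkpoint signalling, averaged 39.4 ± 2.30 CPM in sgNDUFS4 and 37.1 ± 0.782 CPM in sgControl (SD, n = 3 each; limma adjusted p = 0.32).

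Genes of the anaphase-promoting complex pathway fell in 4 of 5 cases, beside 20.3% lower over all genes. Cdca3, an adaptor for the destruction of the Cdk1 inhibitor Wee1 (chr6:124829547-124833701), was at 130.5, 140.4 and 145.6 CPM in sgNDUFS4, against 181.4, 183.2 and 187.1 CPM in sgControl. The mean fell by 24.5% (log2 fold change -0.41, SE 0.043, limma adjusted p = 1.3e-08). Ube2c, the ubiquitin-conjugating enzyme of the complex, was at 113.6, 120.6 and 112.9 CPM in sgNDUFS4, against 148.7, 143.8 and 144.1 CPM in sgControl, a log2 fold change of -0.33 (adjusted p = 4.4e-07 in limma). Espl1, the protease separase that cleaves cohesin, averaged 148.5 ± 6.34 CPM in sgNDUFS4 and 181.1 ± 5.29 CPM in sgControl (SD, n = 3 each; log2 fold change -0.29, limma adjusted p = 2.5e-06). Cdc20, the activator of the complex, averaged 201.9 ± 9.98 CPM in sgNDUFS4 and 229.4 ± 2.28 CPM in sgControl (SD, n = 3 each) and fell by 0.19 on the log2 scale (limma adjusted p = 2.7e-04). Pttg1, which encodes securin, the inhibitor of separase, was at 20.6, 24.0 and 23.9 CPM in sgNDUFS4, against 18.7, 20.5 and 23.4 CPM in sgControl. Its groups overlapped, and it was the least abundant of the 46 genes in CPM (limma adjusted p = 0.28).

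In the chromosomal passenger complex, which corrects faulty attachments and acts in cytokinesis, 2 of 3 genes fell, beside 20.3% lower over all genes. Incenp, the scaffold of the complex (chr19:9872296-9899551), was at 245.6, 241.8 and 248.2 CPM in sgNDUFS4, against 318.0, 309.9 and 307.4 CPM in sgControl. Cdca8, which encodes borealin, was at 79.0, 78.0 and 75.9 CPM in sgNDUFS4, against 106.0, 112.6 and 105.5 CPM in sgControl. In both genes the groups were far apart relative to their spread, with log2 fold changes of -0.35 for Incenp and -0.47 for Cdca8 (limma adjusted p = 3.3e-09 and 6.4e-09). Birc5, which encodes survivin, the subunit that places the complex at centromeres, was at 174.4, 162.1 and 165.3 CPM in sgNDUFS4, against 171.5, 171.2 and 165.5 CPM in sgControl. It did not pass (limma adjusted p = 0.72), and it was lower relative to its chromosomal neighbours (-0.21, adjusted p = 2.5e-04).

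Of 4 kinetochore genes, 3 fell, beside 20.3% lower over all genes. Cenpf, a large coiled-coil protein of the outer kinetochore (chr1:189640606-189688086), was at 145.2, 138.6 and 158.5 CPM in sgNDUFS4, against 182.6, 180.3 and 176.9 CPM in sgControl (log2 fold change -0.29, SE 0.044, limma adjusted p = 5.6e-06). Cenpe, a kinesin that moves chromosomes to the spindle equator, was at 161.3, 164.6 and 153.6 CPM in sgNDUFS4, against 183.4, 184.5 and 185.7 CPM in sgControl (log2 fold change -0.21, limma adjusted p = 8.4e-05). In both genes every sgNDUFS4 library was below every sgControl library. Ndc80, which anchors microtubules, averaged 67.5 ± 2.26 CPM in sgNDUFS4 and 80.4 ± 4.01 CPM in sgControl (SD, n = 3 each; log2 fold change -0.25, limma adjusted p = 3.3e-04). Nuf2, which pairs with Ndc80 in the same complex, was at 85.3, 83.4 and 87.9 CPM in sgNDUFS4, against 83.1, 86.0 and 82.6 CPM in sgControl, and its groups overlapped (limma adjusted p = 0.66).

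Of 8 spindle motors and microtubule proteins, 6 fell and 2 did not pass, beside 20.3% lower over all genes. The largest change of all members was that of Kif4, a chromosome-bound kinesin of the spindle midzone (chrX:100625737-100727214), which was at 51.6, 52.2 and 52.1 CPM in sgNDUFS4, against 107.5, 106.2 and 100.1 CPM in sgControl. Its mean fell by 50.3% (log2 fold change -1.0025, SE 0.051, limma adjusted p = 1.2e-14). The 50 nearest tested genes on chromosome X were shifted by -0.99 on the log2 scale, and relative to them Kif4 was at -0.02 (limma adjusted p = 0.83). Kif4 also shares 15.1% of its exonic bases with Pdzd11 on the opposite strand, and the reads carried no strand.

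Hmmr, a spindle-pole protein and hyaluronan receptor (chr11:40701395-40733422), was at 74.2, 78.3 and 80.0 CPM in sgNDUFS4, against 99.8, 95.4 and 101.7 CPM in sgControl. The groups did not overlap (log2 fold change -0.35, SE 0.049, limma adjusted p = 1.5e-06). Kif2c, a microtubule-depolymerising kinesin, and Kif11, the motor that pushes the spindle poles apart, fell by 0.26 and 0.22 on the log2 scale (limma adjusted p = 4.5e-05 and 6.0e-05). Tacc3, which stabilises kinetochore microtubules, and Tpx2, the activator of Aurora A, were lower by a small margin, with log2 fold changes of -0.11 and -0.10 (limma adjusted p = 0.017 and 0.020). The Tpx2 call was lost without sgNDUFS4 replicate 2 (adjusted p = 0.061), sgNDUFS4 replicate 3 (0.051) or sgControl replicate 1 (0.071). Relative to its chromosomal neighbours Tpx2 was at -0.03 and did not pass (limma adjusted p = 0.52). The Tacc3 call was lost without sgNDUFS4 replicate 3 (0.056) or sgControl replicate 2 (0.086).

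Nusap1, which bundles spindle microtubules, was at 36.9, 37.8 and 41.3 CPM in sgNDUFS4, against 46.9, 37.5 and 48.8 CPM in sgControl. Its sgControl libraries were widely spread, with replicate 2 inside the sgNDUFS4 range, and the gene did not pass (log2 fold change -0.19, limma adjusted p = 0.051). Without sgControl replicate 2 it was lower, with a log2 fold change of -0.30 (adjusted p = 0.0018), and without sgNDUFS4 replicate 3 with one of -0.24 (adjusted p = 0.034). With all libraries kept, Nusap1 was lower with TMM scaling (-0.25, limma adjusted p = 0.011). It was also lower relative to its chromosomal neighbours (-0.23, limma adjusted p = 0.019). Ckap2l, a spindle protein, was at 76.6, 81.5 and 77.8 CPM in sgNDUFS4, against 90.3, 76.6 and 80.3 CPM in sgControl, and its groups overlapped (limma adjusted p = 0.35).

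In the central spindle and cytokinesis group 4 of 7 genes fell and 1 rose, beside 20.3% lower and 31.8% higher over all genes. Racgap1, the GTPase-activating subunit of centralspindlin (chr15:99620496-99651656), was at 299.4, 303.6 and 304.3 CPM in sgNDUFS4, against 395.1, 400.1 and 386.6 CPM in sgControl. The mean fell by 23.2% (log2 fold change -0.38, SE 0.032, limma adjusted p = 1.9e-10). Kif23, the motor subunit of centralspindlin, averaged 118.3 ± 0.759 CPM in sgNDUFS4 and 136.1 ± 5.44 CPM in sgControl (SD, n = 3 each; log2 fold change -0.20, limma adjusted p = 3.5e-04). Kif20a, a kinesin that recruits Plk1 to the midzone, was at 231.2, 226.7 and 231.6 CPM in sgNDUFS4, against 269.4, 280.4 and 276.3 CPM in sgControl (log2 fold change -0.26, limma adjusted p = 6.0e-07). It shares 29.3% of its exonic bases with Cdc23 on the opposite strand, which moved the other way, at a log2 fold change of 0.25. Prc1, which crosslinks the microtubules of the midzone, averaged 164.7 ± 3.26 CPM in sgNDUFS4 and 189.2 ± 3.98 CPM in sgControl (SD, n = 3 each; log2 fold change -0.20, limma adjusted p = 9.5e-05).

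Ect2, the exchange factor that activates RhoA at the division plane (chr3:27097222-27153878), was at 161.2, 173.5 and 169.9 CPM in sgNDUFS4, against 151.6, 155.2 and 151.1 CPM in sgControl. Every sgNDUFS4 library was higher by a small margin (log2 fold change 0.14, SE 0.04, limma adjusted p = 0.0055), and the call was lost with TMM scaling (0.08, adjusted p = 0.11) and turned to -0.25 relative to its chromosomal neighbours. Kif20b, a midbody kinesin, was at 103.0, 105.6 and 106.7 CPM in sgNDUFS4, against 111.8, 109.2 and 105.3 CPM in sgControl, and its groups overlapped (limma adjusted p = 0.38), with a call as lower under TMM scaling (-0.11, adjusted p = 0.045). Anln, the scaffold anillin of the contractile ring, averaged 243.4 ± 5.31 CPM in sgNDUFS4 and 250.5 ± 2.15 CPM in sgControl (SD, n = 3 each) and did not pass (limma adjusted p = 0.33), and it was lower with TMM scaling (-0.10, adjusted p = 0.018) and relative to its chromosomal neighbours (-0.20, adjusted p = 1.8e-04).

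The most abundant genes of the list were Mki67, which fell, and Top2a, which did not pass, and the difference between them was not tested. Mki67, which encodes the Ki-67 protein that coats mitotic chromosomes (chr7:135689784-135716361), was at 549.3, 581.8 and 599.5 CPM in sgNDUFS4, against 723.1, 727.6 and 712.2 CPM in sgControl. The groups were far apart (log2 fold change -0.32, SE 0.031, limma adjusted p = 3.1e-09). Top2a, the topoisomerase that untangles sister chromatids (chr11:98992943-99024189), was at 616.6, 630.3 and 627.3 CPM in sgNDUFS4, against 612.1, 611.0 and 633.3 CPM in sgControl. Its groups overlapped (log2 fold change 0.01, SE 0.029, limma adjusted p = 0.71), and the direction turned to -0.05 with TMM scaling (adjusted p = 0.20) and to -0.16 relative to its chromosomal neighbours (adjusted p = 5.7e-04). Foxm1, the transcription factor that activates many G2 and M genes (chr6:128362967-128376146), was at 176.0, 179.2 and 180.4 CPM in sgNDUFS4, against 194.7, 207.8 and 202.0 CPM in sgControl (log2 fold change -0.17, SE 0.038, limma adjusted p = 4.3e-04). All sgNDUFS4 libraries were lower, by less than in the kinases Aurka and Plk1.

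Per kilobase of the longest annotated coding transcript, the levels of the 46 genes ran from 10.4 CPM per kb for Kif4 to 119.7 for Top2a in sgNDUFS4, and from 12.5 for Pttg1 to 150.7 for Plk1 in sgControl. Plk1 was second in sgNDUFS4, at 112.7 CPM per kb, and first in sgControl. Top2a was first in sgNDUFS4 and sixth in sgControl, at 118.5 CPM per kb. These levels rest on 1 transcript length per gene and are a description of order. Across the 46 genes the log2 fold change had a Pearson correlation of -0.12 with the log2 mean CPM, as a description over genes that share libraries.

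Ratios between genes that act together were taken within each library, as log2 ratios of CPM + 0.5. The 9 pairs were chosen with results of their members known. Aurka over its cofactor Tpx2 had log2 ratios of -0.68, -0.68 and -0.70 in sgNDUFS4, against -0.23, -0.07 and -0.19 in sgControl. The ratio was lower in every sgNDUFS4 library, by 0.53 on the log2 scale. Aurka over Aurkb had log2 ratios of 0.26, 0.31 and 0.18 in sgNDUFS4, against 0.98, 0.99 and 0.87 in sgControl, a difference of -0.70, which was -0.41 when both genes were centred on their chromosomal neighbours. Cdk1 over Ccnb1, the kinase and its cyclin, had log2 ratios of -0.38, -0.46 and -0.40 in sgNDUFS4, against -0.06, -0.08 and 0.06 in sgControl, a difference of -0.39, which was -0.08 after that centring, with overlapping groups. As deposited, the groups did not overlap in any of these 3 pairs, and Aurka over Tpx2 was at -0.52 after centring.

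Within complexes, Ndc80 over Nuf2 differed by -0.28, Aurkb over Incenp by 0.42, Kif23 over Racgap1 by 0.18 and Bub1b over Bub3 by 0.30 on the log2 ratio scale. Espl1 over Pttg1, separase over securin, differed by -0.41, and Ccnb1 over Ccnb2 by 0.22. After centring on neighbours, an alternative added after the data were seen, Ccnb1 over Ccnb2 turned to -0.050 and Kif23 over Racgap1 to -0.031, and in both the groups overlapped. Aurkb over Incenp was at 0.12, Bub1b over Bub3 at 0.27, Ndc80 over Nuf2 at -0.40 and Espl1 over Pttg1 at -0.28, the last with overlapping groups. As deposited, in each of the 9 pairs the 3 sgNDUFS4 libraries did not overlap the 3 sgControl libraries, and each gave an exact two-sided permutation p of 0.10 (0.10 adjusted over the 9 pairs), the smallest that 3 against 3 libraries allow. None could therefore pass a threshold of 0.05. The pairs were chosen with the results of their members known, and overlap was not counted over other pairs of genes. The lack of overlap in all 9 is therefore a description and not a result about the pairs. Of single genes tested, 22.2% lay wholly below and 35.0% wholly above.

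**Figure D4:**
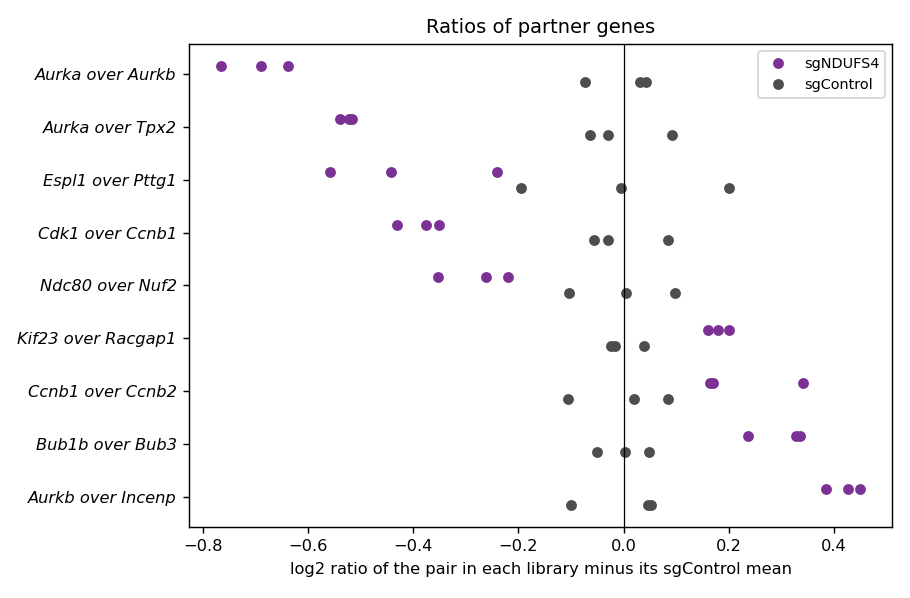
Log2 ratio of each pair in each library minus the sgControl mean of that pair, with sgNDUFS4 libraries in purple above sgControl libraries in grey. Aurka over Aurkb lies lowest, with a difference of -0.70, and Aurkb over Incenp highest, with a difference of 0.42, while Ccnb1 over Ccnb2 and Kif23 over Racgap1 lie above 0 as deposited and turned below 0 after centring on neighbours.

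The position of a gene on its chromosome went along with its change. For each gene, the shift of its neighbours was taken as the difference between sgNDUFS4 and sgControl in the median deviation of its 50 nearest tested genes. Of the 46 members, 41 had a neighbour shift between -0.15 and 0.22, and 5 had a shift of at least 0.3 in either direction, a limit set after these values were seen. The 5 were Kif4, at -0.99, and the genes in raised surroundings, Ccnb1 at 0.44, Ect2 at 0.39, Ccna2 at 0.39 and Plk4 at 0.33. The 3 members that rose were all among them. Of the other 41 genes, 26 fell, 0 rose and 15 did not pass with limma, beside 20.3% lower and 31.8% higher over all genes. Their median log2 fold change was -0.20. At an unadjusted p under 0.05, 28 of the 41 were lower and 0 higher, against 22.3% and 35.0% of all genes at that threshold. Adjusted calls by edgeR were 31 lower and 0 higher, against 25.9% and 24.6% of all genes. All these shares include genes in shifted surroundings, and none was counted over genes with a shift under 0.3. That limit left out the 3 members that rose, so no like background stands beside the 41 genes.

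Relative to their neighbours, the cyclins and Ect2 were lower in sgNDUFS4. When every gene was centred in each library on its 50 nearest neighbours, Ccnb1 was at -0.32, Ccna2 at -0.37, Ccnb2 at -0.27 and Ect2 at -0.25 on the log2 scale (limma adjusted p = 1.7e-07, 1.1e-07, 7.3e-05 and 2.2e-05). Aurka, Plk1 and Cdk1 kept their direction, at -0.55, -0.53 and -0.40. In that fit 36 of the 46 genes were lower, against 22.8% of all 10881 genes centred, and 0 were higher, against 21.4%, with 36 and 0 also at an unadjusted p under 0.05, against 25.6% and 25.1% of all genes. The other 10, among them Kif4, Plk4, Bub1, Bub1b and Nuf2, did not pass. Without centring, edgeR called 32 lower and 1 higher, against 25.9% and 24.6% of all genes. Across the members, the log2 fold change and the neighbour shift had a Pearson correlation of 0.77 (n = 46 genes that share the same 6 libraries), and of 0.67 without Kif4.

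**Figure D5:**
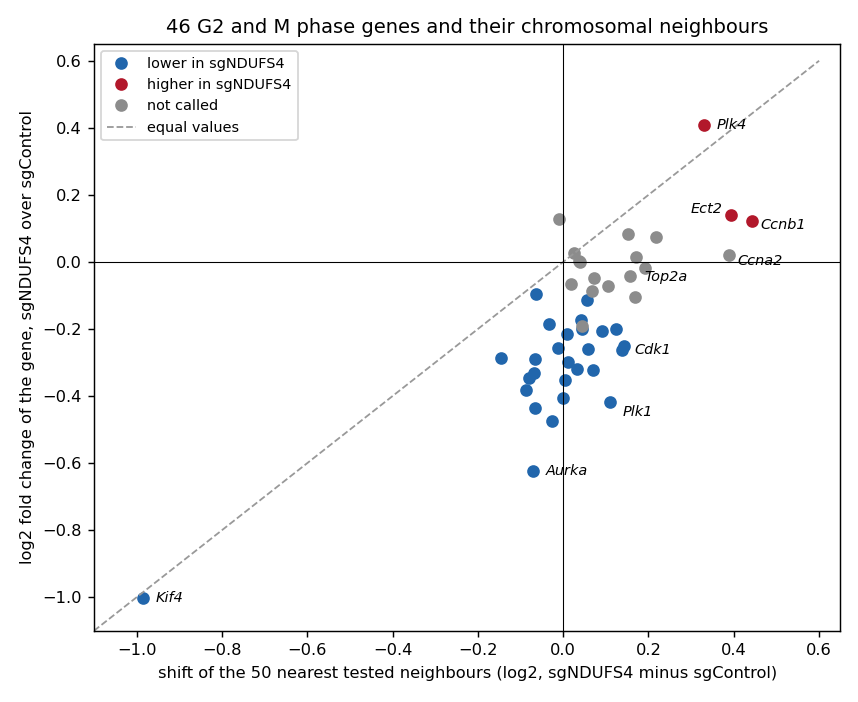
Log2 fold change of each of the 46 genes against the shift of its 50 nearest tested neighbours, both sgNDUFS4 relative to sgControl on the log2 scale, with the dashed line marking equal values. Kif4 lies on the line at the lower left, Plk4, Ect2, Ccnb1 and Ccna2 at the right, and most other genes lie below the line, among them Aurka and Plk1.

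In reads without strand, exonic bases shared with a gene on the opposite strand also made up 22.8% of Ube2c (Tnnc2), 12.7% of Cdc25c (Gm3550), 12.5% of Ccna2 (Exosc9), 11.1% of Prc1 (Rccd1) and 8.1% of Tacc3 (Tmem129). Racgap1, Mad2l1, Mki67 and Ndc80 have annotated copies of at least 95% identity over part of their length. The values of these genes are uncertain to that extent.

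Other genes of G2 and M phase moved in both directions. Of 106 related mitotic genes in 7 lists, all of which could be tested, 33 fell, 30 rose and 43 did not pass, and their median log2 fold change was -0.01, beside 20.3% lower and 31.8% higher over all genes. With TMM scaling 44 were lower and 16 higher, against 25.9% and 24.8% of all genes. After regional centring 44 were lower and 9 higher, against 22.8% and 21.4% of all genes. In both of these fits more of the 106 were lower than higher. Whether the 46 genes and these 106 differ was not tested.

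Among regulators of the promoters, the DREAM and MuvB complex, 4 of 12 genes fell and 3 rose, beside 20.3% lower and 31.8% higher over all genes. The 3 higher calls were lost with TMM scaling. Mybl2, which encodes B-Myb, the partner of MuvB that activates G2 and M genes (chr2:163054687-163084688), was at 94.1, 87.9 and 86.4 CPM in sgNDUFS4, against 133.0, 138.7 and 135.8 CPM in sgControl. The groups were far apart (log2 fold change -0.60, SE 0.046, limma adjusted p = 3.7e-11). The histone-binding subunit Rbbp4 and the repressive factor E2f4 fell by 0.24 and 0.26 on the log2 scale (limma adjusted p = 1.4e-06 and 7.1e-05). Tfdp2, a dimerisation partner of E2F factors, averaged 8.66 ± 0.518 CPM in sgNDUFS4 and 8.69 ± 1.08 CPM in sgControl (SD, n = 3 each) and did not pass.

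Of 12 entry kinases, phosphatases and Cdk1 partners, 4 fell and 5 rose, beside 20.3% lower and 31.8% higher over all genes. Cks1b, a small Cdk-binding subunit, averaged 89.1 ± 4.43 CPM in sgNDUFS4 and 66.3 ± 4.25 CPM in sgControl (SD, n = 3 each), and Pkmyt1, an inhibitory kinase of Cdk1, averaged 26.9 ± 1.07 CPM in sgNDUFS4 and 19.9 ± 1.41 CPM in sgControl (SD, n = 3 each). Both rose (log2 fold changes 0.42 and 0.42, limma adjusted p = 5.0e-07 and 2.0e-04), and the neighbours of Cks1b were shifted by 0.32, relative to which it was at 0.10 (limma adjusted p = 0.14). The mitotic kinase Pbk fell, with a log2 fold change of -0.28 (adjusted p = 6.6e-06 in limma). Arpp19, an inhibitor of the phosphatase PP2A, averaged 84.8 ± 0.827 CPM in sgNDUFS4 and 82.1 ± 3.38 CPM in sgControl (SD, n = 3 each) and did not pass.

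Of 15 subunits and regulators of the anaphase-promoting complex, 3 fell and 5 rose, shares near those over all genes (20.3% lower and 31.8% higher). Fzr1, which encodes the late activator Cdh1, averaged 109.1 ± 2.53 CPM in sgNDUFS4 and 131.8 ± 5.97 CPM in sgControl (SD, n = 3 each) and fell (limma adjusted p = 1.5e-05). The subunits Anapc5 and Cdc23 rose by 0.15 and 0.25 on the log2 scale (limma adjusted p = 1.2e-04 and 3.1e-04), with the shared exons of Cdc23 and Kif20a given above. Cdc26 averaged 13.3 ± 1.73 CPM in sgNDUFS4 and 13.3 ± 0.122 CPM in sgControl (SD, n = 3 each) and did not pass.

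Of 22 other kinesins and spindle genes, 8 fell and 6 rose, beside 20.3% lower and 31.8% higher over all genes. Troap, a spindle-associated protein, averaged 70.0 ± 2.40 CPM in sgNDUFS4 and 100.9 ± 3.36 CPM in sgControl (SD, n = 3 each) and fell (log2 fold change -0.52, limma adjusted p = 2.1e-09), and Cep55, a midbody protein, had a log2 fold change of -0.26 (adjusted p = 3.1e-04 in limma). Kif2a, a microtubule-depolymerising kinesin on chromosome 13, rose by 0.52 with neighbours shifted by 0.45, relative to which it was at 0.06 (limma adjusted p = 0.45). Kifc1 averaged 103.4 ± 1.05 CPM in sgNDUFS4 and 103.4 ± 3.05 CPM in sgControl (SD, n = 3 each) and did not pass.

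Of 28 other kinetochore and centromere genes, 9 fell and 5 rose, beside 20.3% lower and 31.8% higher over all genes. Cenpm and Zw10 fell by 0.49 and 0.33 on the log2 scale, and Cenpt, which links the inner kinetochore to the Ndc80 complex, averaged 41.8 ± 3.39 CPM in sgNDUFS4 and 27.3 ± 1.97 CPM in sgControl (SD, n = 3 each) and rose (log2 fold change 0.60, limma adjusted p = 3.9e-07). Dsn1 averaged 30.3 ± 4.04 CPM in sgNDUFS4 and 28.9 ± 1.72 CPM in sgControl (SD, n = 3 each) and did not pass. Of 8 condensin genes, which compact chromosomes, 3 fell and 2 rose, beside the same shares over all genes. Ncaph2 and Ncapg fell by 0.30 and 0.19, and Smc4 rose by 0.25 with neighbours shifted by 0.36, relative to which it turned to -0.11. Ncaph averaged 126.1 ± 5.14 CPM in sgNDUFS4 and 126.6 ± 6.12 CPM in sgControl (SD, n = 3 each) and did not pass. Of 9 cohesin genes, which hold sister chromatids together, 2 fell and 4 rose, beside those same shares over all genes. Stag2, on chromosome X, fell by 0.84 with neighbours shifted by -0.78, relative to which it was at -0.06 (limma adjusted p = 0.39). Rad21 fell by 0.21 and Smc3 rose by 0.26. Smc1a averaged 199.6 ± 9.57 CPM in sgNDUFS4 and 201.7 ± 6.19 CPM in sgControl (SD, n = 3 each) and did not pass.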

How the data were processed

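The members and gene lists were chosen with earlier results of these data known. Polyadenylated RNA was sequenced in pairs without strand, per the labels' protocols. The submitters' processing notes name HISAT2 and the build GRCm38; how reads were counted is not given in the sources used here. CPM values were deposited by the authors, scaled to reads counted in genes. Values above 0 were whole multiples of 1 read in 99.99% to 100% of cases per library (tolerance 0.01 reads), so reads were recovered, and edgeR 4.0.16 on them called 5583 genes. Depth was 20090607 to 25947374 reads, which puts a floor of 3 reads at 0.116 to 0.149 CPM, for counting error only.

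Limma 3.58.1 (R 4.3.3, mean-variance trend, pseudocount 0.5) was fitted on all 11063 genes that averaged 1 CPM or more. On simulated libraries with 11057 genes tested, the fit recovered 6%, 90%, 98% and 100% of 50 genes each changed 1.1-, 1.25-, 1.5- and 2-fold, with 7 false calls. Far fewer genes were changed there than the 5755 called in the data, which makes the adjusted threshold stricter in the simulation. Positions came from GENCODE M21, matched by symbol, and 10881 genes had one and enough neighbours to be centred. Copies were sought with blastn 2.17.0. Chi-square per gene between libraries of one group was 3.53 to 5.31, above sampling noise. Alternatives were other pseudocounts, filters, scalings and variance models, a replicate block, regional centring, each library left out, and edgeR and DESeq2 1.42.0 on the recovered reads. Values in every library are given for Cdk1, Ccna2, Ccnb1, Aurka, Plk1, Mki67, Top2a, Foxm1, members that rose and, in each functional group, the 2 members with the smallest p and the 1 with the largest. Nusap1 was added after its values were seen. Of each related list, up to 3 genes with the smallest p and 1 with the largest are named. 1 marker on the list is not reported here.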

Additional observations from a re-analysis of the deposited data

How the results depend on the processing

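Of the 27 genes that fell, 24 were lower in all 18 alternatives, the exceptions being Kif4, Tpx2 and Tacc3. The number of the 46 genes that were lower ranged from 25 without the trend to 36 after regional centring. The number higher was 1 with TMM scaling, median-ratio scaling, no trend, edgeR and DESeq2, and 0 after regional centring. The median log2 fold change was -0.25 with TMM or median-ratio scaling, -0.26 with edgeR and DESeq2, on their own count scale, and -0.24 after regional centring. With a library left out it lay between -0.20 and -0.18, with 26 to 27 lower and 3 higher. Regional centring, which subtracts the neighbours' shift by construction, put Ccna2 at -0.37, Ccnb1 at -0.32, Ect2 at -0.25, Top2a at -0.16, Aurkb at -0.14 and Smc4 at -0.11, all above 0 as deposited. It put the log2 ratio differences of Ccnb1 over Ccnb2 at -0.050 and of Kif23 over Racgap1 at -0.031, against 0.22 and 0.18 as deposited, in an alternative added after the data were seen. Of the 106 related genes, 16 were higher with TMM scaling, median-ratio scaling and edgeR, 15 with DESeq2 and 9 after regional centring, and 22 to 31 were higher and 25 to 33 lower with a library left out. Over all genes, 2326 were higher after regional centring, and leaving out a library gave 3009 to 3401 higher and 1952 to 2184 lower. The cause of the other changes was not tested. Same-numbered libraries had correlations of deviations of 0.056, 0.012 and 0.097, and not every library correlated best with its own number, so the numbers were not taken to pair them. With the replicate block, 28 of the 46 genes were lower and 3 higher, 33 related genes were lower and 31 higher, and 2309 of all genes were lower and 3632 higher. The simulation recovered few 1.1-fold changes, but far fewer genes were changed in it than were called in the data. Its recovery therefore does not carry over, and changes near 1.1-fold were called here in Ccnb1 and Ect2. A member that did not pass is still not shown to be equal between the groups.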
